A study of Mus musculus with 6 samples.

Results

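The premyelinating oligodendrocyte genes are 10 genes of committed precursors and newly formed oligodendrocytes, chosen by name: Gpr17, Bcas1, Enpp6, Neu4, Tns3, Itpr2, Sirt2, Fyn, 9630013A20Rik and Rras2. All 10 have a row among the 35857 genes measured. They were measured in 3 Qk_KO libraries (genotype Qk-/-) and 3 control libraries (genotype wild type) of C57BL/6 mice at postnatal day 7, as polyadenylated RNA of the whole cerebral cortex sequenced on the Ion Proton. The labels do not say that each library came from its own animal, so n counts libraries. The targeted gene, Qk, codes for the RNA-binding protein quaking of glia and their progenitors, and the series title asks how it bears on the switch from neurogenesis to gliogenesis. No source used here gives the promoter behind any Cre, the exons removed or the cells that lose Qk. Values are TPM, transcript abundance per unit of gene length scaled to the same total in each library, so the depth behind each value is unknown.

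Oligodendrocytes arise in steps. A dividing precursor commits, leaves the cell cycle, passes through a short premyelinating stage in which it extends many processes, and then either dies or wraps axons with myelin. In the mouse cortex the first postnatal week is early in that course, so premyelinating transcripts are present while transcripts of mature oligodendrocytes are still scarce. Quaking proteins bind RNA through a short element with the core ACTAAC or ACTAAT (written as DNA), and mice with reduced quaking in oligodendrocytes are known for poor myelination.

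The libraries matched their labels on the targeted gene. Qk was at 14.6, 15.2 and 15.4 TPM in the Qk_KO libraries, against 36.5, 43.2 and 41.3 TPM in the control libraries. Between 18971 and 19710 genes per library were above 0 TPM, and no pair of libraries was a duplicate. Neuron genes of the cortex were abundant in every library, and none of the 12 cortical neuron markers passed the limma test (3 at an unadjusted p under 0.05). Those 3 were higher in Qk_KO without overlap of the groups. The summed level of the 12 was 2392 to 2473 TPM in Qk_KO and 2029 to 2224 TPM in control libraries. In both groups the mature oligodendrocyte genes Mobp, Ermn, Hapln2 and Opalin averaged under 1 TPM and Klk6 was listed at 0.

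Because quaking acts through its RNA element, the longest annotated 3' UTR of each protein-coding member (GENCODE M21, GRCm38) was read for the 6-base cores ACTAAC and ACTAAT on the transcript strand. Of the 9 protein-coding members, Gpr17, Neu4, Itpr2 and Sirt2 had 1 core each, Enpp6 had 2, and Bcas1, Tns3, Fyn and Rras2 had 0. The matches follow in 30-base windows with the core in capitals, for the members on chromosomes from which sequence is given.
Sirt2, chr7:28788632-28788661, plus strand: caaattaaaaaacaaaacaaagcaACTAAC
Neu4, chr1:94026708-94026737, plus strand: gttttgtgtcagACTAACtgggtcttaaag
Itpr2, chr6:146108460-146108489, minus strand: ggaactgactcgACTAATgaatgaggtgac
Enpp6, first, chr8:47094000-47094029, plus strand: ctgtcggtgaccACTAACttccctcagaca
Enpp6, second, chr8:47094901-47094930, plus strand: aaaacaaaaaaaACTAACaaaacaaaacaa

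None of the members' cores had the second, shorter element TAAC or TAAT within 20 bases on either side, the arrangement in which quaking binds best in vitro. The Sirt2 core closes a 3' UTR of 589 bases, and 15.6% of the 1415 tested genes with a 3' UTR within 20% of that length held at least 1 core. For the 3992 bases of Gpr17 that share was 69.2% of 1271 genes, and for the 2918 bases of Neu4 58.1% of 1810. For the 3372 bases of Itpr2 it was 64.2% of 1620 and for the 3563 bases of Enpp6 65.7% of 1512. At least 2 cores, as in Enpp6, were held by 33.5% of those 1512 genes. For members that held none, the share with at least 1 was 28.3% of 1917 genes at the 1083 bases of Bcas1. It was 57.7% of 1849 at the 2842 bases of Tns3. At the 1409 bases of Fyn it was 34.3% of 2063, and at the 1382 bases of Rras2 33.4% of 2040. Of the 3 members called lower by the limma test, Gpr17 and Sirt2 held a core and Bcas1 did not. Over all genes with a 3' UTR, 63.4% of the 41 called lower and 34.7% of the 13789 tested held one. Those shares were not matched for 3' UTR length, with which the shares above rose, and their difference was not tested. A match of letters is not a bound site, and its absence from this window says nothing of the protein.

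Gpr17, Bcas1 and Sirt2 fell in the Qk_KO cortex, and no member rose. Of the 10 members, 9 reached the mean of 1 TPM over the 6 libraries that the test required, and 9630013A20Rik did not. Log2(TPM + 1) was fitted with limma over 14994 genes with a threshold of 0.05 on the Benjamini-Hochberg adjusted p. A fall was called for 3 of the 9 members, against 0.287% of all tested genes (43 genes), and a rise for 0 (15 genes over all); calls in either direction made up 0.387%. The other 6 members did not pass. In 6 of the 9 tested members every Qk_KO library lay below every control library, a separation seen in 8.98% of tested genes in that direction and in 5.20% in the other. The untested 9630013A20Rik was separated in the same direction. Neu4 reached the mean through its control values alone, and the list was chosen with earlier results of these data known. The counts are therefore a description of the list. The median log2 change of the 9 was −0.55, against −0.03 over all tested genes. Log2 changes are Qk_KO minus control on the log2(TPM + 1) scale, where the added 1 shrinks the change of scarce transcripts.

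**Figure D1:**
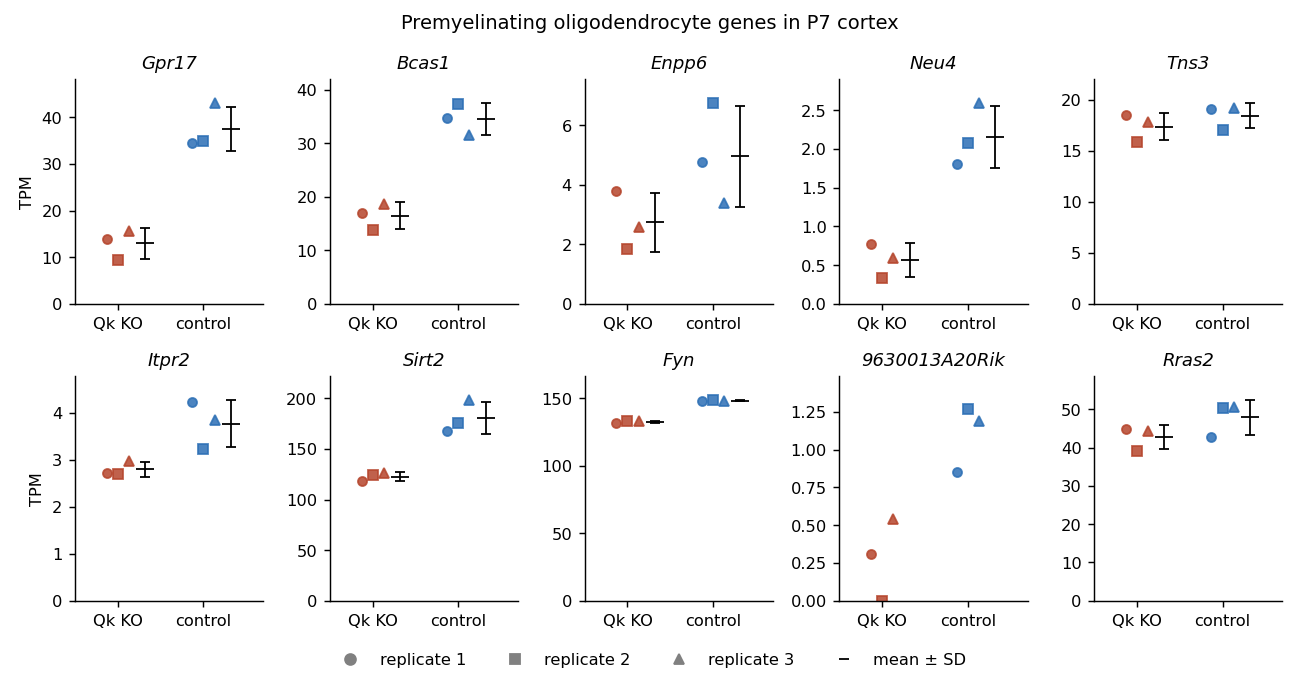
TPM of each of the 10 genes in each library (vertical axes, each from 0), Qk_KO in red on the left and control in blue on the right, with symbols for replicates 1 to 3 and black bars for the mean ± SD (n = 3; none drawn for 9630013A20Rik, which is listed at 0 in 1 library). Gpr17, Bcas1, Neu4, Itpr2, Sirt2, Fyn and 9630013A20Rik show no overlap of the groups; Enpp6, Tns3 and Rras2 do.

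Among the surface proteins, Gpr17 is a G protein-coupled receptor that appears as precursors commit and disappears before myelination. It was at 13.99, 9.30 and 15.5 TPM in Qk_KO replicates 1, 2 and 3, against 34.4, 35.0 and 43.0 TPM in control replicates 1, 2 and 3. The highest Qk_KO library was thus below the lowest control library by more than the range within either group. The mean was 12.9 ± 3.24 TPM in Qk_KO and 37.5 ± 4.78 TPM in control cortex (SD, n = 3 each), 0.345 times the control level. In log2 Gpr17 fell by 1.49 (SE 0.176, limma adjusted p = 0.00963), and 0.167% of tested genes had a lower change. Of the 6 fits without 1 library, 5 kept the call, and it was lost without control replicate 3 (adjusted p = 0.0547). Gpr17 (Entrez 574402) is annotated in GRCm38 on chromosome 18, bases 31942997 to 31949636, minus strand. It lies wholly inside Lims2, a gene of the other strand, and the exons of the pair share 188 of the 5195 exonic bases of Gpr17. Lims2 was at 8.54, 9.49 and 10.3 TPM in Qk_KO and at 11.9, 16.3 and 18.4 TPM in control libraries (adjusted p = 0.206). The strand setting of the authors' counting is not given, so reads in the shared bases cannot be assigned to one gene.

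Enpp6, a choline-specific phosphodiesterase held at the outer membrane and used as a mark of newly formed oligodendrocytes, was a scarcer transcript. It was at 3.81, 1.84 and 2.58 TPM in Qk_KO and at 4.76, 6.74 and 3.38 TPM in control libraries. The groups overlapped, since Qk_KO replicate 1 exceeded control replicate 3. The log2 change of −0.67 had a 95% confidence interval of −1.26 to −0.07 and an adjusted p of 0.515 (limma). Its gene lies on the plus strand of chromosome 8, from 46986887 to 47096762. None of the 6 tested ENPP ectoenzymes passed (2 at an unadjusted p under 0.05, Enpp6 and Enpp2). Enpp2, the lysophospholipase autotaxin that oligodendrocytes secrete, averaged 55.5 ± 4.99 TPM in Qk_KO and 68.3 ± 9.87 TPM in control cortex (adjusted p = 0.539). Enpp5, the most abundant of the family, averaged 87.4 ± 1.78 TPM in Qk_KO and 83.9 ± 5.84 TPM in control cortex (adjusted p = 0.883). Enpp4, Enpp1 and Enpp3 had log2 changes of −0.07, 0.31 and −0.25 at means under 5 TPM.

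Neu4, a sialidase that removes sialic acid from glycoproteins and gangliosides, was the member with the lowest level among those tested. It was at 0.770, 0.330 and 0.590 TPM in Qk_KO, against 1.80, 2.08 and 2.59 TPM in control libraries. The highest Qk_KO value was well under the lowest control value. The log2 change of −1.02 (SE 0.237) did not pass over all genes (adjusted p = 0.177), and with a pseudocount of 0.1 in place of 1 TPM it was −1.81 (adjusted p = 0.242). The lowest adjusted p over its alternatives, 0.0835, came from limma without a trend in the spread. The ratio of means was 0.261. The other sialidases gave no such separation: Neu1, the lysosomal enzyme, averaged 24.9 ± 2.35 TPM in Qk_KO and 24.9 ± 2.48 TPM in control cortex. Neu2 was between 1.36 and 3.89 TPM in Qk_KO and between 1.54 and 3.30 TPM in control libraries, and Neu3 between 1.13 and 3.13 TPM in Qk_KO and between 1.15 and 1.98 TPM in control libraries. The Neu4 gene lies on the plus strand of chromosome 1, from 94020451 to 94028334.

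Bcas1, a cytoplasmic protein that marks oligodendrocytes at the onset of myelination, was at 16.9, 13.9 and 18.8 TPM in Qk_KO, against 34.7, 37.4 and 31.6 TPM in control libraries. The groups were far apart, with a gap wider than the range of either. The mean was 16.5 ± 2.46 TPM in Qk_KO and 34.6 ± 2.94 TPM in control cortex (SD, n = 3 each), a log2 change of −1.03 (SE 0.123, limma adjusted p = 0.0103). Without control replicate 2 the adjusted p was 0.0644, and the call held when any other single library was left out. Bcas1 (Entrez 76960) spans bases 170346991 to 170427845 of chromosome 2, minus strand, with the antisense genes Bcas1os1 and Bcas1os2 sharing 440 and 34 of its 3775 exonic bases.

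Sirt2, an NAD-dependent deacetylase of alpha-tubulin found in oligodendrocyte processes and myelin and also made by other brain cells, had the highest mean TPM of the members over the 6 libraries. It was at 118, 124 and 126 TPM in Qk_KO, against 167, 176 and 198 TPM in control libraries. The Qk_KO libraries were close together and all below the control libraries. The mean was 122.7 ± 4.27 TPM in Qk_KO and 180.5 ± 15.9 TPM in control cortex (SD, n = 3 each), a log2 change of −0.55 (SE 0.0803, limma adjusted p = 0.0277). In size this was the largest difference of the 10 in TPM (57.8 TPM less in Qk_KO), while Gpr17 was 24.5 TPM and Bcas1 18.0 TPM lower. The call was the least stable of the 3 and remained in 1 of the 6 fits without 1 library, the one without control replicate 1 (adjusted p = 0.0318; 0.116 at the highest). Sirt2 (Entrez 64383) spans bases 28766735 to 28788661 of chromosome 7, plus strand, and its exons share 42 bases with Nfkbib of the other strand.

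The other 6 sirtuins did not pass. Sirt3, the main mitochondrial deacetylase, averaged 63.1 ± 4.91 TPM in Qk_KO and 73.1 ± 2.80 TPM in control cortex, without overlap of the groups (log2 change −0.21, adjusted p = 0.497). Sirt7, Sirt6 and Sirt5 had log2 changes of −0.16, −0.06 and −0.07, Sirt4 one of 0.02 and Sirt1 one of −0.08, each with overlapping groups.

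Removing the trend from limma's estimate of the spread, which pulls all genes to 1 common value, left none of the 9 members past the threshold: the adjusted p was then 0.0709 for Gpr17, 0.0650 for Bcas1 and 0.119 for Sirt2. Sirt2 was also lost with no filter on low values (adjusted p = 0.0639) and with the replicate number as a block (0.0612).

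**Figure D2:**
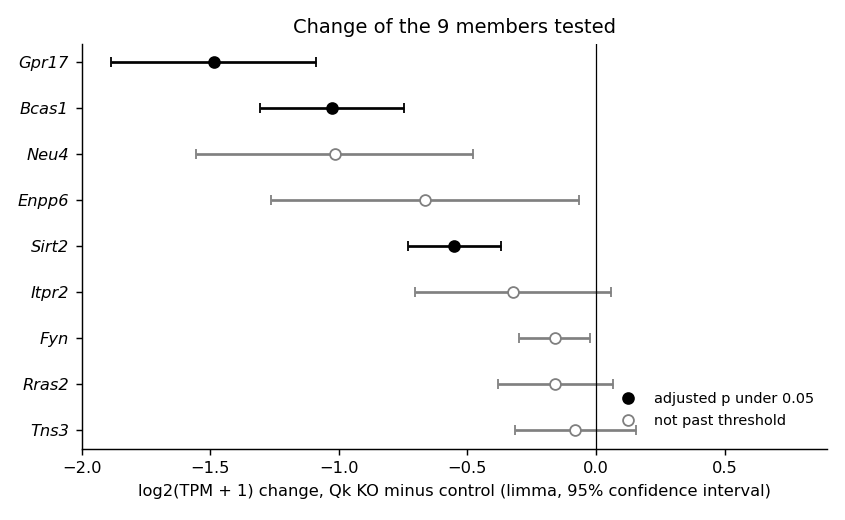
Change of the 9 tested genes in log2(TPM + 1), Qk_KO minus control, with 95% confidence intervals from limma; filled points have an adjusted p under 0.05. The interval of Gpr17 ends at −1.09, while those of Itpr2, Rras2 and Tns3 include 0.

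Fyn, a kinase of the Src family that drives process outgrowth and local Mbp translation in oligodendrocytes and is also made by neurons, showed a small difference with very little scatter. It was at 132, 133 and 133 TPM in Qk_KO, against 148, 149 and 148 TPM in control libraries. Its coefficient of variation was 0.624% in Qk_KO and 0.157% in control cortex, the lowest of the 10 members in each group. The groups did not overlap, but the ratio of means was 0.894 and the log2 change −0.16 (95% confidence interval −0.30 to −0.02). It did not pass (limma, adjusted p = 0.491). Limma sets the spread of a gene partly from genes of similar level, so the close values of 3 libraries do not by themselves set it. Fyn lies on the plus strand of chromosome 10, from 39368855 to 39565381.

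Among its relatives, Src averaged 45.2 ± 1.63 TPM in Qk_KO and 49.1 ± 4.06 TPM in control cortex. Lck was at 11.0, 10.4 and 8.55 TPM in Qk_KO, against 6.00, 7.57 and 7.86 TPM in control libraries (log2 change 0.43, adjusted p = 0.426). Yes1 and Lyn stayed below 7 TPM on average in both groups, with log2 changes of −0.31 and 0.13 (adjusted p = 0.656 and 0.852). Among 19 tested genes that act with Fyn in oligodendrocytes, none passed and 1 had an unadjusted p under 0.05. Their median log2 change was −0.07. Mapt, the tau gene whose protein binds Fyn, averaged 721 ± 16.6 TPM in Qk_KO and 767 ± 49.0 TPM in control cortex. Tubb4a, a tubulin of oligodendrocytes and neurons, averaged 558 ± 16.5 TPM in Qk_KO and 555 ± 30.3 TPM in control cortex. The list also holds broadly expressed genes, and neurons make many of its members.

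Rras2, a small GTPase of the R-Ras group, was at 44.8, 39.0 and 44.4 TPM in Qk_KO and at 42.7, 50.4 and 50.5 TPM in control libraries, with overlapping groups. Its log2 change was −0.16 (95% confidence interval −0.38 to 0.06, limma adjusted p = 0.718). Its relative Hras averaged 439.7 ± 11.3 TPM in Qk_KO and 482 ± 49.5 TPM in control cortex (adjusted p = 0.732). Mras, with no overlap of the groups, averaged 61.4 ± 3.35 TPM in Qk_KO and 69.6 ± 3.77 TPM in control cortex (adjusted p = 0.576). Nras and Rras had log2 changes of −0.12 and −0.02 (adjusted p = 0.824 and 0.978). Rras2 spans bases 114046782 to 114117781 of chromosome 7, minus strand.

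Tns3, a tensin that links integrins to actin and marks immature oligodendrocytes, differed least. It was at 18.4, 15.9 and 17.8 TPM in Qk_KO and at 19.1, 17.0 and 19.1 TPM in control libraries. The groups overlapped, and the log2 change of −0.08 had a 95% confidence interval of −0.32 to 0.15 (limma, adjusted p = 0.885). That interval lies wholly above the one for Gpr17 (−1.88 to −1.09). Tns2 averaged 6.69 ± 1.48 TPM in Qk_KO and 6.65 ± 0.443 TPM in control cortex, and Tns1 5.30 ± 1.01 TPM in Qk_KO and 5.80 ± 0.787 TPM in control cortex. Tns3 spans bases 8431652 to 8664535 of chromosome 11, minus strand.

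Itpr2, a calcium release channel of the endoplasmic reticulum found in newly formed oligodendrocytes and in astrocytes, was at 2.72, 2.69 and 2.98 TPM in Qk_KO, against 4.22, 3.23 and 3.84 TPM in control libraries. The groups did not overlap, though the highest Qk_KO and the lowest control library were close. The log2 change of −0.32 (95% confidence interval −0.70 to 0.06) did not pass (limma, adjusted p = 0.647). Itpr1, the main neuronal channel of the family, averaged 15.3 ± 1.02 TPM in Qk_KO and 15.9 ± 1.59 TPM in control cortex. Itpr3 averaged 2.49 ± 0.450 TPM in Qk_KO and 1.84 ± 0.363 TPM in control cortex, with a log2 change of 0.29 (adjusted p = 0.750). Itpr2 spans bases 146108299 to 146502223 of chromosome 6, minus strand.

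9630013A20Rik, a long non-coding RNA that RefSeq also lists as lncOL1, was at 0.310, 0 and 0.540 TPM in Qk_KO, against 0.850, 1.27 and 1.19 TPM in control libraries. Every Qk_KO library lay below every control library, at levels where few reads can be behind a value. It entered a fit only when no filter was used, with a log2 change of −0.73 (adjusted p = 0.407). The gene spans bases 84458639 to 84476424 of chromosome 14, minus strand, inside the span of the protocadherin gene Pcdh17 on the other strand. The exons of the pair share 0 bases in this annotation. Pcdh17 was at 23.8, 24.4 and 23.0 TPM in Qk_KO and at 27.9, 23.4 and 23.4 TPM in control libraries.

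By mean TPM, the members ran in Qk_KO cortex from Fyn and Sirt2 through Rras2, Tns3, Bcas1 and Gpr17 to Itpr2, Enpp6, Neu4 and 9630013A20Rik. In control cortex the order was Sirt2, Fyn, Rras2, Gpr17, Bcas1, Tns3, Enpp6, Itpr2, Neu4 and 9630013A20Rik. Gpr17 and Bcas1 were thus below Tns3 on average in Qk_KO and above it in control cortex. In Qk_KO the neighbours Tns3 and Bcas1, Bcas1 and Gpr17, Itpr2 and Enpp6, and Neu4 and 9630013A20Rik overlapped between libraries. In control cortex Rras2 and Gpr17, Gpr17 and Bcas1, and Enpp6 and Itpr2 overlapped. Sirt2 and Fyn made up 71.0% to 75.6% of the summed TPM of the 10 members in Qk_KO and 67.9% to 69.1% in control libraries, so a sum over the list mostly reflects those abundant and broadly expressed genes. The remaining 8 members together were at 102, 82.9 and 103 TPM in Qk_KO, against 143, 153 and 155 TPM in control libraries.

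The members were also placed against precursor genes of the same library. The mean log2(TPM + 1) of 22 precursor genes was 4.92 in Qk_KO and 4.93 in control libraries, so subtracting it could hardly alter a difference between the groups, and it averages over genes that differed in both directions. Relative to that mean, Gpr17 stood at −1.15 ± 0.374 in Qk_KO and at 0.33 ± 0.132 in control libraries, and Bcas1 at −0.80 ± 0.224 in Qk_KO and at 0.22 ± 0.159 in control libraries (SD, n = 3 each, in log2). Both were thus above the average precursor gene in every control library and below it in every Qk_KO library. Sirt2 stood at 2.03 ± 0.0690 in Qk_KO and at 2.57 ± 0.0862 in control libraries. These relative levels are a description and were not tested. The precursor list holds genes that neurons or astrocytes also make, such as Cntn1 and Cspg5.

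**Figure D3:**
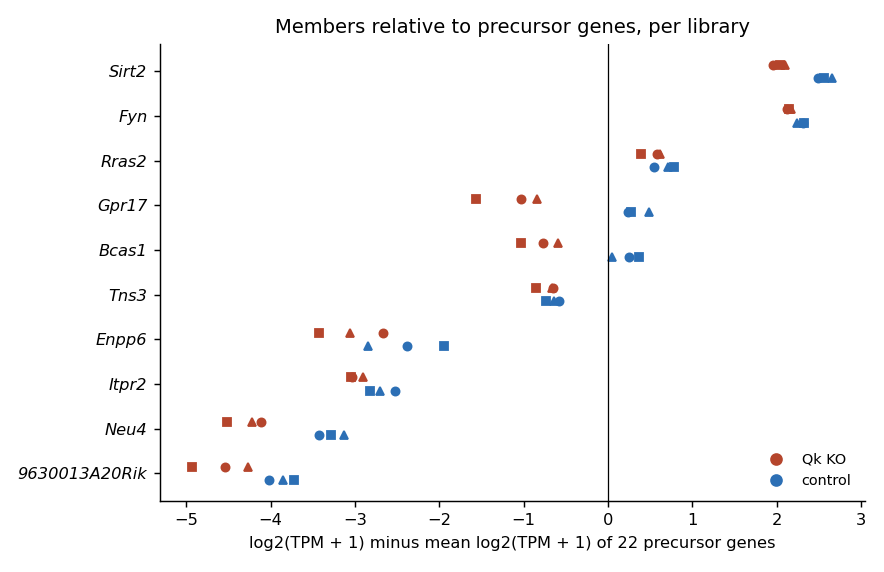
Log2(TPM + 1) of each of the 10 genes minus the mean log2(TPM + 1) of 22 precursor genes in the same library (horizontal axis), with Qk_KO libraries in red above control libraries in blue and symbols for replicates 1 to 3 as circle, square and triangle. Gpr17 and Bcas1 lie left of 0 in all 3 Qk_KO libraries and right of it in all 3 control libraries.

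Other genes of the lineage were called in the precursor and the myelin lists, against 0.387% of all tested genes and 1307 of 14994 at an unadjusted p under 0.05. Of 22 tested precursor genes, 1 rose and 0 fell, with 7 at an unadjusted p under 0.05 and a median log2 change of −0.10. The groups did not overlap in 5 precursor genes lower and 3 higher in Qk_KO. The rise was Olig2, a transcription factor of the lineage, at 97.3 ± 6.01 TPM in Qk_KO and 61.8 ± 4.64 TPM in control cortex. The most abundant precursor genes, Cspg5 and Cacng4, did not pass: Cspg5, a proteoglycan, averaged 320.3 ± 20.8 TPM in Qk_KO and 367 ± 15.9 TPM in control cortex (adjusted p = 0.487), and Cacng4, an AMPA receptor subunit partner, 206 ± 4.31 TPM in Qk_KO and 196 ± 11.9 TPM in control cortex (adjusted p = 0.850). Of 24 other tested genes of newly formed oligodendrocytes none passed, with 3 at an unadjusted p under 0.05 and a median of −0.08. Their log2 changes ran from −0.66 to 0.11, 16 negative and 8 positive. The groups did not overlap in 4 of the 24 lower in Qk_KO and in 0 higher, against 8.98% and 5.20% of all tested genes. The most abundant of the 24, Mpzl1, averaged 115 ± 2.98 TPM in Qk_KO and 109.5 ± 7.20 TPM in control cortex, and Rap2a, a Ras-related GTPase, 86.6 ± 0.817 TPM in Qk_KO and 95.2 ± 1.94 TPM in control cortex. Of 22 tested myelin and mature genes 3 fell and 0 rose, with 8 at an unadjusted p under 0.05, 12 of the 22 log2 changes negative and a median of −0.10. Mbp, a structural protein of compact myelin, averaged 51.4 ± 1.85 TPM in Qk_KO and 93.5 ± 1.504 TPM in control cortex, Cnp, an enzyme of non-compact myelin, 53.3 ± 6.66 TPM in Qk_KO and 90.9 ± 5.40 TPM in control cortex, and Car2, a carbonic anhydrase, 37.6 ± 5.38 TPM in Qk_KO and 69.1 ± 4.36 TPM in control cortex. Over all tested genes 57.0% of log2 changes were negative. Without Qk_KO replicate 2, Qk_KO replicate 3 or control replicate 2, the precursor list had 0 rises and the myelin list 1 fall.

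**Figure D4:**
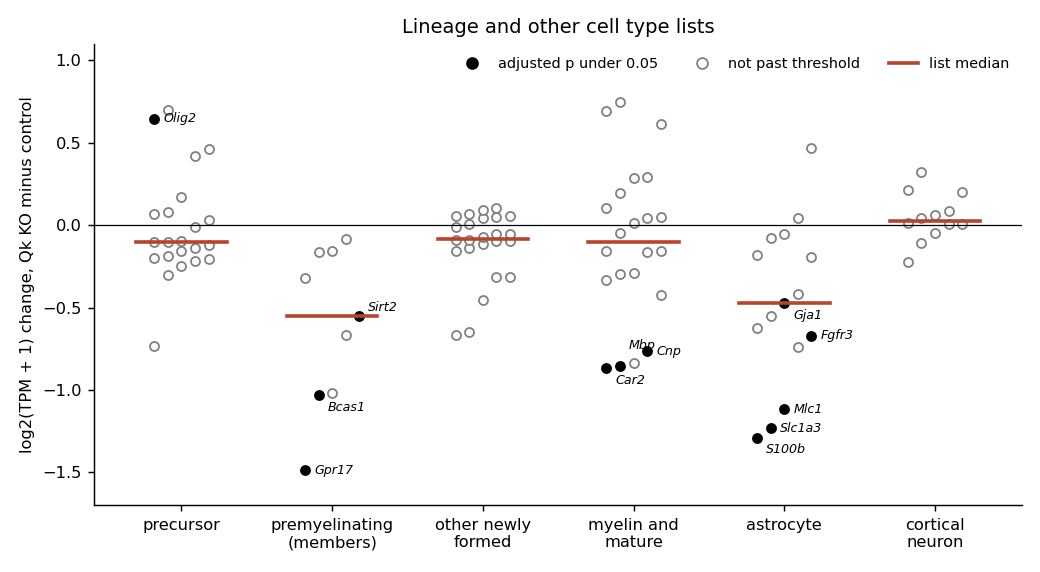
Log2(TPM + 1) change, Qk_KO minus control, of each tested gene in 6 lists; filled points with names have an adjusted p under 0.05 and red bars mark list medians. The median of the premyelinating genes is −0.55 and that of the astrocyte markers −0.47, while those of the precursor (−0.10), other newly formed (−0.08), myelin and mature (−0.10) and cortical neuron (0.03) lists lie nearer 0.

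Markers of other cells differed between the groups too. Of 15 astrocyte markers 5 fell (Slc1a3, Mlc1, S100b, Fgfr3 and Gja1) and 0 rose. The groups did not overlap in 11 of the 15 lower in Qk_KO and in 1 higher, against 8.98% and 5.20% of all tested genes. Separation of the groups was thus not particular to the premyelinating members. The 5 falls became 3 in each of the 6 fits without 1 library, with no filter, without the trend and with the replicate block. Aldh1l1 of the same list was higher in Qk_KO without overlap, at 77.0 ± 4.93 TPM in Qk_KO and 55.5 ± 7.22 TPM in control cortex, and did not pass (limma, adjusted p = 0.139). None of the 15 was at 0, and their summed level was 1087 to 1137 TPM in Qk_KO and 1420 to 1512 TPM in control libraries. Of 11 radial glia and stem cell markers 2 fell (Slc1a3 and Hopx) and 1 rose (Vim). The rise was lost with no filter, without the trend, with the replicate block and without Qk_KO replicate 1, Qk_KO replicate 2, control replicate 2 or control replicate 3, and the falls were 1 without the trend, without control replicate 2 and without control replicate 3. Of 6 choroid plexus and ependyma markers 1 rose (Foxj1), while the other 5 had negative log2 changes and the list a median of −0.32. That rise was lost with no filter, without the trend, with the replicate block and in each of the 6 fits without 1 library. None of 10 microglia markers (2 at an unadjusted p under 0.05), 11 endothelial and mural cell markers (3), 8 young neuron markers (0), 7 striatum markers (0) or 7 thalamus markers (2) passed. The part of astrocytes in the lower values of Sirt2, Itpr2 and the other members was not tested. In whole cortex, fewer cells of a type and less RNA per cell cannot be told apart.

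Among the receptors related to Gpr17, 7 were tested (Gpr17 included) and Gpr17 alone passed. The groups did not overlap in 3 of the 7 (Gpr17, P2ry12 and P2ry13), all lower in Qk_KO, against 8.98% of all tested genes. P2ry12, a microglial ADP receptor, averaged 9.29 ± 0.321 TPM in Qk_KO and 12.1 ± 1.06 TPM in control cortex (adjusted p = 0.398), and P2ry13 2.29 ± 0.584 TPM in Qk_KO and 3.57 ± 0.784 TPM in control cortex (adjusted p = 0.587). Gpr34, P2ry6, P2ry1 and P2ry14 had log2 changes of 0.12, 0.22, 0.09 and 0.41.

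The 5 genes of at least 5 TPM whose log2(TPM + 1) followed Gpr17 most closely over the 6 libraries were Dennd5a (Pearson r = 0.998), Hopx (0.997), Slc35b1 (0.993), Papss1 (0.993) and Pon2 (0.993). The libraries share the group difference, so these values describe group and library differences together. Hopx averaged 23.0 ± 2.57 TPM in Qk_KO and 40.4 ± 2.17 TPM in control cortex, and Pon2 29.3 ± 1.98 TPM in Qk_KO and 44.2 ± 3.07 TPM in control cortex. Both passed the test (limma, adjusted p = 0.0152 and 0.0413), while Dennd5a, Slc35b1 and Papss1 did not (adjusted p = 0.446, 0.201 and 0.455).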

How the data were processed

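The sample titles gave groups and replicate numbers. Per the submitters' processing notes, reads were handled with STAR 2.4.1d and RSEM 1.3.0 on mm10 and GRCm38.p4; no source used here states their order, the annotation or the strand setting. The authors deposited 1 TPM value per gene and library, summing to 1000000, so no counting error can be computed.

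TPM were used as deposited. After a filter at 1 TPM on the mean of the 6 libraries, limma 3.58.1 (R 4.3.3; lmFit, then eBayes with trend, two-sided) took log2(TPM + 1) with group as its only term. Adjusted p-values are Benjamini-Hochberg over the 14994 genes kept, or over the genes an alternative keeps. The members and lists were chosen with earlier results of these data known. Alternatives were pseudocounts of 0.1 and 0.5, no filter, a mean of 5 TPM, median-of-ratios scaling, no trend, a replicate block and leaving out each library. On simulated data of these genes the test recovered 23% of changes of 0.5 and 69% of changes of 1 in log2, and 2.13% of its calls were unchanged genes. Named genes were the members, their tested relatives (some are not reported here), and from lineage lists the genes past the threshold or, where fewer than 2 passed, also the most abundant; lists of other cell types are given as counts with the genes that passed and, against that rule, without their most abundant genes, and Lims2, Aldh1l1, Pcdh17, Nfkbib, Cntn1 and the scarce mature genes were named after their values were seen. The labels do not say that each library came from its own animal, and p-values reflect only how far these libraries spread, which may be technical. Positions and 3' UTRs are from GENCODE M21, which gave a 3' UTR for 92.0% of tested genes.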

Additional observations from a re-analysis of the deposited data

How the results depend on the processing

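In the alternatives in which a member was fitted, none turned its sign: 13 for 6 members and 12 for Enpp6, Neu4 and Itpr2 (not fitted with a mean of at least 5 TPM). 9630013A20Rik was fitted only with no filter. The count of genes past the threshold, 58 as reported, was 74 with a mean of at least 5 TPM, 54 with median-of-ratios scaling, 57 and 58 with pseudocounts of 0.1 and 0.5, 37 with no filter on low values, 28 without the trend, 38 with the replicate block, and 27 to 59 when 1 library was left out. The 3 falls among the members became 0 without the trend, 2 with no filter or the replicate block, and 1 to 3 when 1 library was left out; the lowest count, 1, came without control replicate 2 (adjusted p of Gpr17 stayed under 0.05) or control replicate 3 (Bcas1 stayed). The precursor list had 2 rises with a mean of at least 5 TPM, 0 without the trend, 0 with the replicate block and 0 to 1 when 1 library was left out. The myelin list had 1 rise with a mean of at least 5 TPM and 1 with median-of-ratios scaling, 1 fall without the trend, and 1 to 3 falls when 1 library was left out. Where a library is left out fewer samples enter the fit; the cause of the other differences was not tested. Same-numbered libraries deviated together only weakly (correlations of 0.0350, 0.0311 and 0.0134), though above every differently numbered pair (−0.0422 to 0.00990). Deviations from a group mean cancel within the group, so these correlations depend on each other. Their order cannot decide whether same-numbered libraries belong together. The labels state no shared litter or day, so the replicate block pairs numbers only. Median-of-ratios scaling gave a median change of all genes of 0.000465, against −0.03 without it. TPM keep no depth, which limits statements on Neu4, Itpr2, Enpp6 and 9630013A20Rik most.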

Other observations

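Within the Qk_KO group, replicate 2 was the lowest library for 8 of the 10 members, the exceptions being Sirt2 and Fyn. Over all 14994 tested genes it was the lowest of the 3 Qk_KO libraries for 39.1%. Its summed precursor genes (1450 TPM, against 1406 and 1425 TPM in the other Qk_KO libraries) were not low, and its summed myelin and mature genes were the lowest of the group at 401 TPM, against 412 and 427 TPM. Without Qk_KO replicate 2 the log2 change of Gpr17 was −1.28 and that of Bcas1 −0.92, and both were past the threshold. In the control group no library stood out in this way: replicate 1 was lowest for 5 members, replicate 2 for 2 and replicate 3 for 3.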
